A study of Mus musculus with 2 samples.

Results

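The 7 genes Sla2, Dhrs3, Rnf157, Ccdc88a, Ssbp2, Khdc1a and Emb were followed across the cell types of mouse spleen sorted as natural killer (NK) cells. They were chosen by name, out of 32285 genes, because an earlier analysis of the same data placed them among the genes raised most in NK-like cells under dietary restriction (DR). Their levels and DR ratios in NK-like cells are therefore given as a description and support nothing further. Single cells were profiled by droplet-based sequencing of transcript 3' ends, with 1 library for the mice labelled control and 1 for those labelled dietary restriction. The labels gave no strain, age, sex, diet, duration, sorting gate or number of mice, and did not say whether mice were pooled. A single library per group leaves no replicates, so no difference is tested, no p-value is given, and every interval covers counting error only, not differences between mice.

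The genes have unlike roles. Sla2 encodes SLAP2, an adaptor that dampens antigen receptor signalling. Dhrs3 encodes a reductase that turns retinaldehyde back into retinol and so limits retinoic acid. Rnf157 encodes a RING-type ubiquitin ligase. Ccdc88a encodes girdin (also called GIV), an actin-binding protein that modulates heterotrimeric G proteins. Ssbp2 encodes a single-stranded DNA binding protein that joins LDB1 and LIM-domain factors in transcription complexes. Khdc1a belongs to a small family with an RNA-binding KH domain. Emb encodes embigin, an immunoglobulin-superfamily glycoprotein that acts in adhesion and accompanies monocarboxylate transporters to the cell surface. Mouse NK cells mature from cells with CD27 to cells with both CD27 and CD11b (gene Itgam) and then to cells with CD11b alone, gaining KLRG1 and CX3CR1 late. Group 1 innate lymphoid cells (ILC1) are close relatives of NK cells that keep the IL-7 receptor.

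On the mouse build GRCm38 the genes lie on 5 chromosomes. Sla2 (ENSMUSG00000027636) spans chr2:156872457-156887192 on the minus strand, and its exons overlap Rab5if on the opposite strand. Dhrs3 (ENSMUSG00000066026) spans chr4:144892827-144928209 on the plus strand. Rnf157 (ENSMUSG00000052949) spans chr11:116336353-116413032 on the minus strand, and Ccdc88a (ENSMUSG00000032740) spans chr11:29373658-29510808 on the plus strand. Ssbp2 (ENSMUSG00000003992) spans chr13:91460283-91703429 on the plus strand, with an antisense gene over an exon. Khdc1a (ENSMUSG00000067750) spans chr1:21349641-21352200 on the plus strand. Emb (ENSMUSG00000021728) spans chr13:117208536-117274415 on the plus strand, and Gm17509 on the opposite strand overlaps an exon. Whether strand was used in counting is not given in the sources used here, so reads of Sla2, Ssbp2 and Emb may include reads of these partners.

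RefSeq promoters of build GRCm38.p6, 300 bases around each start, matched 6 of the 7 genes (not Khdc1a), in 8 windows. The 250 bases before the start are shown for Sla2 and Dhrs3, the genes with the largest DR ratios, and for Emb, whose pattern over stages differed most from the others. They are written 5′ to 3′, with matches of the searched motifs in capitals.
Sla2, chr2:156887222-156887471, minus strand: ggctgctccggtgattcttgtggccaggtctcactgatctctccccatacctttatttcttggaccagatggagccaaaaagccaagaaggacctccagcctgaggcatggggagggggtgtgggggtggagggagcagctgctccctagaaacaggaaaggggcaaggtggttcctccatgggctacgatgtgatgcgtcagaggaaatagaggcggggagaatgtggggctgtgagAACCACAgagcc
Dhrs3, chr4:144892577-144892826, plus strand: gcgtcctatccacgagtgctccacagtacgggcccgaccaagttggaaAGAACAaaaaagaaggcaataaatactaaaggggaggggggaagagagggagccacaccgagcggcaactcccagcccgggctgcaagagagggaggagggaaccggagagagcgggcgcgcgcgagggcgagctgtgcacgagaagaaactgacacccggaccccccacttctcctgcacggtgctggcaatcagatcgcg
Emb, chr13:117220323-117220572, plus strand: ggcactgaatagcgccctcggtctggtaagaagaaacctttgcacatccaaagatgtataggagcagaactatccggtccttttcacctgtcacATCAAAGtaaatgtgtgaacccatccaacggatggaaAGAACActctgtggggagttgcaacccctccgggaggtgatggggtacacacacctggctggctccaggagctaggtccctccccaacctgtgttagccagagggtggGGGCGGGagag
In Sla2 the capitals mark TGTGGTT (RUNX) read on the opposite strand, which 5.27% of all 32851 promoters held. In Dhrs3 they mark AGAACA (a core of glucocorticoid response elements), held by 19.0% of promoters. In Emb they mark CTTTGAT (TCF and LEF) on the opposite strand, held by 3.73%, then AGAACA, then GGGCGGG (KLF), held by 25.6%. The windows of Ccdc88a and Rnf157 held GGGCGGG alone, and that of Ssbp2 held none of the motifs searched. The 2 later starts of Dhrs3 had windows with CTTTGAA (TCF and LEF, 5.14% of promoters) and TGTGGTT, and the last of them also held GTAAACA (FOXO, 3.65%). AGGTGTGA and AGGTGNGA (T-box), CCGGAAG (ETS), AGGTCA (a core of retinoic acid response elements) and CACGTG (E-box) had no match in any of the 8 windows. Both strands were searched, and every AGGTGTGA is also an AGGTGNGA. No motif was found in the windows of all 6 genes, and a match is a run of letters, not a measured binding site.

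Unique molecular identifiers (UMIs) numbered 44526828 over 5702 barcodes in control and 42134212 over 6287 barcodes in DR. Median depth was 7152 and 5782 UMIs per barcode, and 13 barcodes occurred in both libraries. After removal of low-quality barcodes and called doublets, 5244 control and 5756 DR cells were clustered without the 7 genes and named from markers. NK-like cells numbered 4679 in control (89.2% of kept cells) and 4441 in DR (77.2%), with 36366811 and 27264674 UMIs in all. The NK receptor gene Ncr1 stood at 1231 and 1066 counts per 1000000 UMIs (CPM) in them. The T cell gene Cd3e stood at 0.27% of its T-like level in DR NK-like cells, and the B cell gene Cd79a at 0.09% (control) and 0.16% (DR) of its B-like level. ILC1-like cells numbered 300 and 415, B-like cells 125 and 460, and T-like cells 3 and 290. B-like and T-like cells are outside the labelled cell type, and the gate that let them through is not described. NK-like cells with any UMI of Igkc, Jchain, Cd79a, Ms4a1, Cd3e, Trac, Cd8b1 or Lyz2 made up 16.1% in control and 24.8% in DR. Without these cells all 7 genes were still called higher in all NK-like cells and in each stage described below. Other B, T and myeloid genes were not used for this choice.

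Levels below are CPM of the summed UMIs of a class in 1 library. A gene was called higher where DR exceeded control by at least 25%, and lower where it fell short by at least 20%, where the 95% interval of the ratio left out 1 and the mean of both libraries was at least 20 CPM. In all NK-like cells 2.9% of 5837 genes were called higher and 7.78% lower, and all 7 genes were higher, as their choice requires. Their median log2 ratio was 0.92, against -0.06 over all genes.

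Sla2 had the highest ratio of the 7 in NK-like cells. Its level was 23.6 CPM in control (860 UMIs) and 60.3 in DR (1644 UMIs), a log2 ratio of 1.35 (95% interval 1.23 to 1.47). Dhrs3 stood at 21.4 CPM in control and 51.8 in DR, a log2 ratio of 1.28 (1.15 to 1.40). Rnf157 stood at 23.8 and 49.7 CPM, a log2 ratio of 1.07 (0.94 to 1.19). These 3 genes were at least doubled in DR by their ratio. The remaining 4 genes had ratios close to each other, just under a doubling. Ccdc88a stood at 23.4 CPM in control and 44.05 in DR, a log2 ratio of 0.91 (0.79 to 1.04). Ssbp2 stood at 40.8 and 77.1 CPM, a log2 ratio of 0.92 (0.82 to 1.02). The KH-domain gene Khdc1a stood at 67.5 and 125.7 CPM, a log2 ratio of 0.90 (0.82 to 0.97). Emb stood at 73.8 and 138.5 CPM, a log2 ratio of 0.91 (0.84 to 0.98). Ordered by the interval's bound closest to no change, the 7 genes held places 2 to 13 of the genes described. Ccdc88a was the last of them at place 13, and Il7r (log2 ratio 0.87) and Nagk (0.86) came just after it. S1pr1, Ctla2a, Cxcr3, Cxcr4 and Cirbp lay in the same range and are not among the 7. The first place was held by Igkc, an immunoglobulin gene of B cells, at 15.5 and 75.4 CPM in NK-like cells. All 12 B cell markers were at a higher level in DR NK-like cells, with sums of 157.5 and 298.2 CPM.

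**Figure D1:**
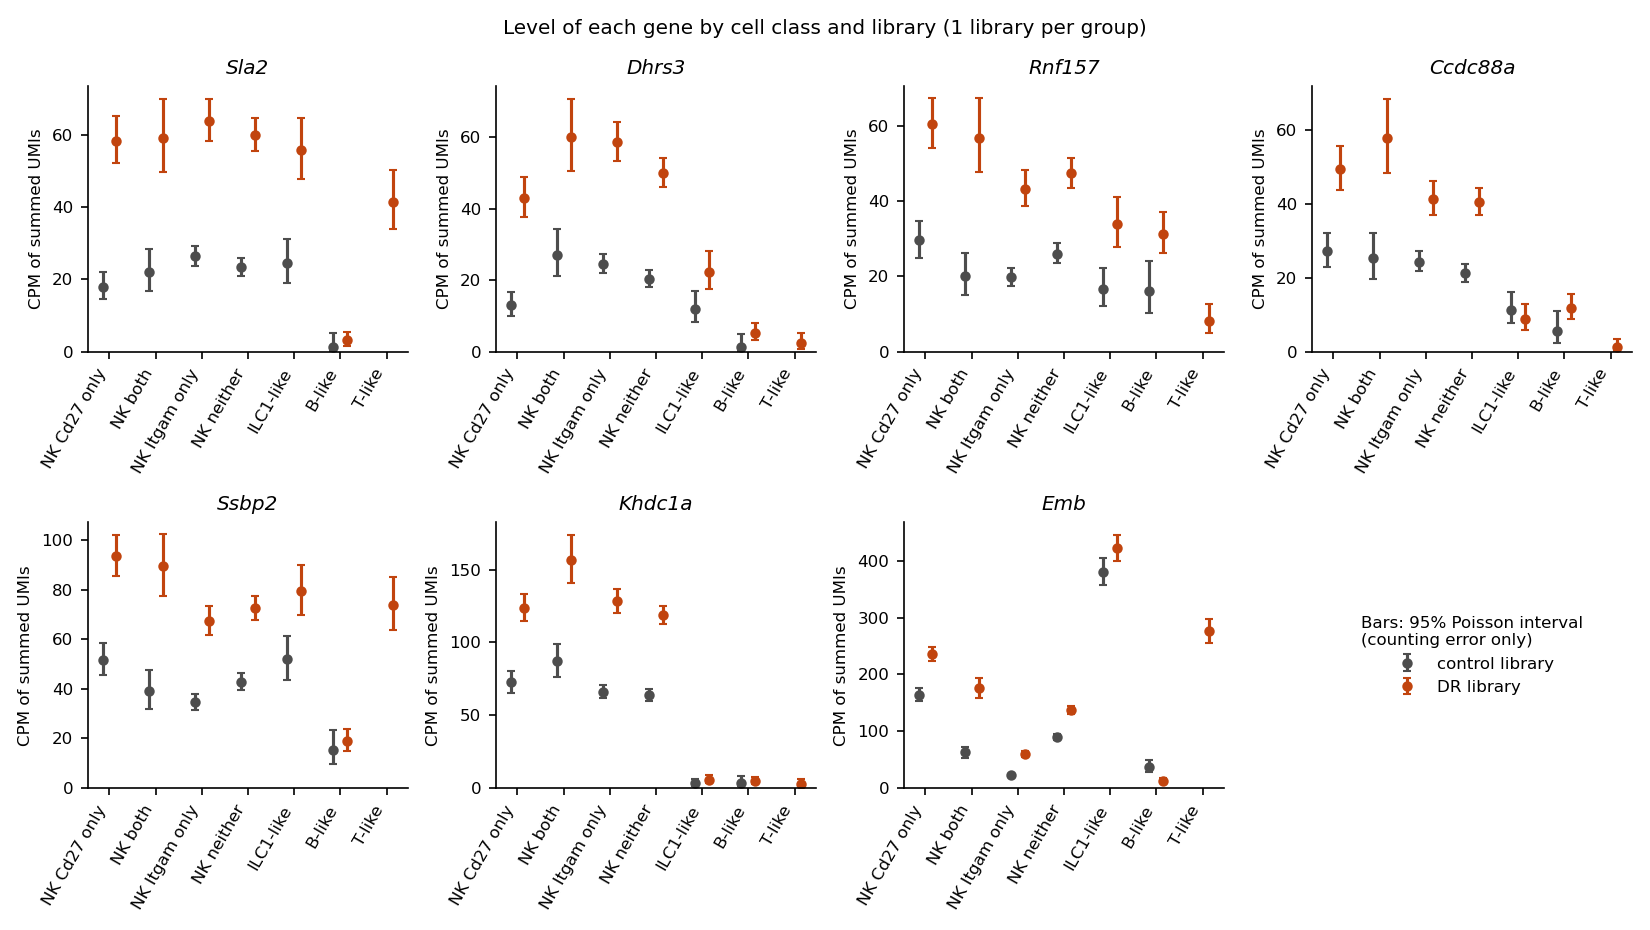
Levels of each gene (vertical axis, CPM of summed UMIs) by cell class (horizontal axis), with grey points for the control library, orange points for the DR library and bars for 95% Poisson intervals. In the 4 NK stages every DR point lies above its control point for all 7 genes; the 3 control T-like cells are not drawn.

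NK-like cells were divided by whether a cell had a UMI of Cd27, of Itgam, of both or of neither after thinning to 3000 UMIs. This left 4394 control and 4214 DR cells, and left out 285 and 227 shallower ones. Cells with Cd27 only made up 11.7% of control and 17.7% of DR cells, cells with both 7.24% and 8.5%, cells with Itgam only 40.9% and 31.4%, and cells with neither 40.1% and 42.4%. A cell with neither can be of any stage, since 1 UMI is easily missed at this depth. In each of the 4 groups all 7 genes were called higher in DR, where 4.78% (Cd27 only), 4.98% (both), 4.39% (Itgam only) and 3.37% (neither) of all genes were. The shares of genes called lower were 10.3%, 11.2%, 9.08% and 8.08% in the same order, with none of the 7 among them. These groups are parts of the cells the genes were chosen on, so the counts are no separate support.

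Sla2 and Dhrs3 were lowest in the least mature cells of the control library, and there had their largest ratios. In cells with Cd27 only, Sla2 stood at 17.9 CPM in control and 58.3 in DR (log2 ratio 1.70, 1.36 to 2.05). In cells with Itgam only, Sla2 stood at 26.4 and 63.9 CPM (1.28, 1.07 to 1.48). The spread of Sla2 over the 4 groups, highest over lowest, was 1.47-fold in control and 1.1-fold in DR. The Cd27-only over Itgam-only fold of this adaptor was 0.68 (0.53 to 0.86) in control and 0.91 (0.79 to 1.05) in DR. Only the control interval left out 1, but the intervals overlap, so a loss of the stage difference in DR is not shown. Dhrs3 stood at 13.0 and 43.1 CPM in cells with Cd27 only (log2 ratio 1.73, 1.33 to 2.15). In cells with Itgam only, Dhrs3 stood at 24.7 and 58.7 CPM (1.25, 1.04 to 1.46). Its Cd27-only over Itgam-only fold was 0.53 (0.40 to 0.69) in control and 0.74 (0.63 to 0.86) in DR, so it remained lower in the less mature cells of both libraries.

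Rnf157, Ssbp2 and Emb were higher in cells with Cd27 only than in cells with Itgam only in both libraries. Rnf157 stood at 29.6 and 60.6 CPM in cells with Cd27 only (log2 ratio 1.03), and at 19.8 and 43.3 CPM in cells with Itgam only (1.13). Ssbp2 stood at 51.7 and 93.6 CPM in cells with Cd27 only (0.86), and at 34.6 and 67.5 CPM in cells with Itgam only (0.97). For both genes the Cd27-only over Itgam-only fold was alike in the libraries, 1.49 and 1.40 for Rnf157 and 1.5 and 1.39 for Ssbp2.

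Emb had by far the steepest stage pattern of the 7. In control it stood at 164.5 CPM in cells with Cd27 only, 62.7 with both, 22.5 with Itgam only and 90.1 with neither. In DR the levels of Emb were 235.7, 175.3, 59.9 and 137.7 CPM in the same order. The Cd27-only over Itgam-only fold was 7.31 (6.40 to 8.37) in control and 3.94 (3.54 to 4.39) in DR. Its log2 ratio was 0.52 (0.39 to 0.65) in cells with Cd27 only and 0.61 (0.51 to 0.72) with neither, against 1.48 (1.22 to 1.75) with both and 1.41 (1.20 to 1.63) with Itgam only. The low pair of intervals and the high pair did not overlap in this setting, but the split depended on the depth at which stages were read. With stages read at 2000 UMIs per cell, the log2 ratio of Emb was 0.78 with both and 0.76 with neither. It was 0.47 with Cd27 only and 1.29 with Itgam only. When stages were read from all UMIs of a cell, it was 1.08 with both and 0.37 with neither. In that setting Emb in cells with Cd27 only had a log2 ratio of 0.23 and was no longer called.

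Ccdc88a and Khdc1a varied little between the ends of the maturation series, with Cd27-only over Itgam-only folds of 1.12 (0.91 to 1.37) and 1.19 (1.01 to 1.41) for Ccdc88a and 1.1 (0.97 to 1.24) and 0.96 (0.87 to 1.06) for Khdc1a. Ccdc88a stood at 27.2 and 49.5 CPM in cells with Cd27 only (log2 ratio 0.86), and at 24.4 and 41.5 CPM in cells with Itgam only (0.77). Khdc1a stood at 72.8 and 123.6 CPM in cells with Cd27 only (0.76), and at 66.1 and 128.2 CPM in cells with Itgam only (0.96). Cells with both held the highest level of each of these genes in DR, 57.9 CPM for Ccdc88a and 156.8 for Khdc1a. Over the 7 genes, the log2 ratios in cells with both Cd27 and Itgam ran from 0.85 (Khdc1a) to 1.51 (Rnf157), and in cells with neither from 0.61 (Emb) to 1.36 (Sla2).

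**Figure D2:**
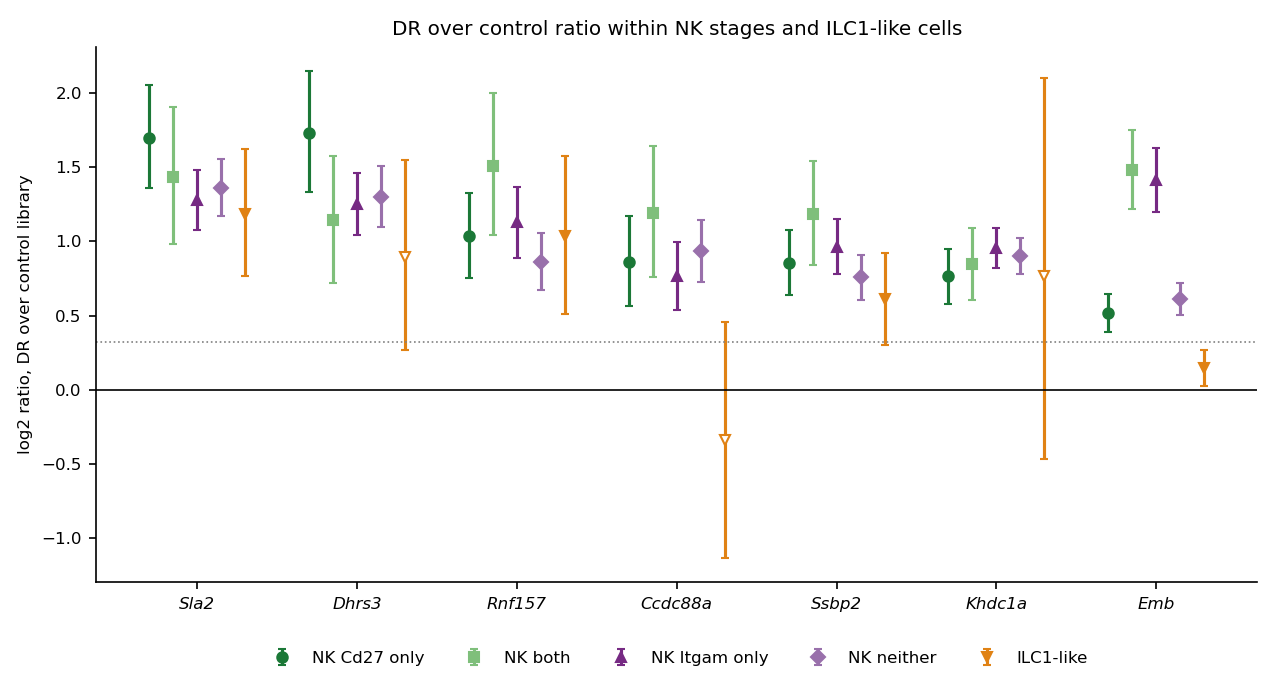
Log2 ratio of DR over control (vertical axis) of each gene (horizontal axis) in the 4 NK stages and in ILC1-like cells, with bars for 95% intervals, a dotted line at a level 25% above control, and open symbols for a mean under 20 CPM. Sla2 and Dhrs3 are highest in cells with Cd27 only, whereas Emb is lowest there among the stages and nearer 0 in ILC1-like cells (0.15).

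The DR library had more Cd27-only and fewer Itgam-only cells, so the DR levels were also computed with the stages weighted as in control. All 7 genes stayed at least 25% above control, where 3% of all genes did by ratio alone. Emb kept 85.9% of its log2 ratio, with 0.80 at the control mix. The other 6 genes kept 96.2% to 102% of theirs. For comparison, Cd27 kept 57.2% and Itgam 53.9% of theirs. Stages from 2 genes are coarse, so the 8 clusters of NK-like cells with at least 50 cells in each library were also weighted. One of them (241 control and 66 DR cells) was led by the B and plasma cell genes Igkc and Jchain and by Cd74. With equal weight for each cluster the log2 ratio of Emb was 0.34, less than when all NK-like cells were summed by over 1.5 times. The remaining genes kept log2 ratios of 0.72 (Ssbp2) to 1.3 (Sla2). Without the Igkc cluster, a setting added after seeing the data, the log2 ratio of Emb was 0.26 and it was no longer at least 25% above control, which left 6 of the 7 genes.

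Over the 7 clusters other than the one led by Igkc, the log2 ratio of every gene was above 0, but not every interval was. Sla2 had log2 ratios of 0.36 to 1.68, with 6 of 7 intervals above 0, and Dhrs3 of 1.0 to 4.06, with 7 of 7. Rnf157 ranged from 0.40 to 1.5 (6 of 7), Ssbp2 from 0.15 to 0.88 (6 of 7) and Khdc1a from 0.50 to 1.27 (7 of 7). Fewer intervals lay above 0 for Ccdc88a, which ranged from 0.31 to 1.25 (5 of 7), and for Emb, which ranged from 0.02 to 0.77 (3 of 7). In the cluster led by Igkc the ratios were also above 0, with the highest values of Rnf157 (1.74), Ccdc88a (1.32), Ssbp2 (1.39) and Emb (1.3) from few UMIs. The low end of Emb was a cluster led by Batf3, Cd3d and Cd3g (179 control and 236 DR cells), where it stood at 336.5 and 341.4 CPM. In the same cluster Dhrs3 was nearly missing, with 1 UMI in control and 18 in DR (0.46 and 7.72 CPM). Sla2 there stood at 21.2 and 51.9 CPM, near its level in all NK-like cells. In the mature-like cluster led by Cx3cr1 and Klrg1 (2062 control and 426 DR cells) Emb stood at 3.63 and 4.71 CPM, whereas Sla2 stood at 27.1 and 80.1. In the mature-like cluster led by Ly6c2 (401 and 1749 cells) Emb stood at 10.4 and 17.7 CPM, and Sla2 at 27.6 and 66.3. Sla2 and Emb were thus placed apart in the mature cells, with Sla2 well above its control level where Emb was scarcely detected. In the proliferating cluster of NK-like cells (122 and 74 cells) Sla2 stood at 9.66 and 31.0 CPM and Khdc1a at 62.5 and 127.2 CPM. Ssbp2 stood there at 35.8 and 39.8 CPM, with an interval of its log2 ratio from -0.48 to 0.77. A separate cluster with Mki67 and Top2a (85 control and 50 DR cells) stayed unnamed and is not among these cells.

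In ILC1-like cells 4 of the 7 genes reached 20 CPM, and 3 of these were called higher in DR, where 4.4% of all genes were (9.94% were lower). The adaptor gene Sla2 stood at 24.5 and 55.7 CPM (log2 ratio 1.19, 0.77 to 1.62), about as in NK-like cells. Rnf157 stood at 16.6 and 33.9 CPM (1.03, 0.51 to 1.57). Ssbp2 stood at 52.0 and 79.4 CPM (0.61, 0.30 to 0.92). Embigin showed the other pattern: Emb was at 516% of its NK-like level in control ILC1-like cells, and stood at 380.9 and 422.2 CPM (log2 ratio 0.15, 0.03 to 0.27), which was not called. The genes under 20 CPM were lower than in NK-like cells. Dhrs3 stood at 12.1 and 22.4 CPM (log2 ratio 0.89, 0.27 to 1.55), and Ccdc88a at 11.3 and 8.96 CPM (-0.33, -1.13 to 0.46). Khdc1a stood at 3.39 and 5.76 CPM, 5.02% and 4.58% of its NK-like level. No test separated the ILC1-like from the NK-like ratios. T cell markers moved in the same class: Cd3e stood at 1.13 and 21.8 CPM, Trac at 6.03 and 27.9 and Cd3d at 16.2 and 46.4. Of the 12 T cell markers 10 were at a higher level in DR, 4 were at 0 in control and 0 in DR, and they summed to 1392 and 1508 CPM. Cells holding any UMI of Cd3e, Trac, Cd8b1, Igkc, Jchain, Cd79a, Ms4a1 or Lyz2 were then left out (242 and 303 cells remained). Sla2 (log2 ratio 1.15), Rnf157 (0.84) and Ssbp2 (0.67) were still called higher. A stricter choice, made after seeing the data, left out cells with any UMI of Cd3e, Trac, Trbc1, Cd8a, Cd8b1, Cd4 or Cd5. It kept 33 and 39 cells, in which 0 of the 7 genes were called and the log2 ratios of Sla2 (0.78) and Ssbp2 (0.75) had intervals holding 0. These ratios rested on 6 and 9 UMIs of Sla2 and 17 and 25 of Ssbp2, too few to show whether they changed.

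B-like cells held UMIs of NK genes, so levels in them were read against those genes. Ncr1, Klrb1c, Prf1 and Gzma, which B cells should lack, stood in B-like cells at 3.74% to 4.89% of their NK-like level in control and 3.18% to 4.77% in DR. Sla2 (5.92% and 5.12%) and Khdc1a (5.19% and 3.78%) were close to that level, with 2 and 13 UMIs of Sla2, and no expression is read from them. Dhrs3 stood at 6.54% and 10.1%, from 2 and 22 UMIs. Rnf157 was well above it, at 67.8% and 63.1% of its NK-like level. The ubiquitin ligase gene Rnf157 stood at 16.1 and 31.4 CPM in B-like cells (log2 ratio 0.96, 0.32 to 1.67) and was called higher, as 4.09% of all genes were. The call rested on 23 and 132 UMIs of Rnf157, of which the highest 3 cells held 34.8% and 7.58%. Without the B-like cells that held a UMI of an NK gene, which left 67 and 340 cells, Rnf157 stood at 14.5 and 35.4 CPM. These levels came from 9 and 97 UMIs (log2 ratio 1.29, 0.31 to 2.46). Ccdc88a stood at 5.60 and 11.9 CPM and Ssbp2 at 15.4 and 19.0 CPM in B-like cells, and both intervals of the ratio held no change.

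Emb went the other way in B-like cells. It stood at 37.8 CPM in control and 13.3 in DR (log2 ratio -1.51, -2.07 to -0.94) and was called lower, as 10.2% of all genes were. The values rested on 54 UMIs in 26 of 125 control cells and 56 UMIs in 32 of 460 DR cells, and the highest 3 cells held 24.1% and 28.6% of them. In the B-like cells without UMIs of NK genes Emb stood at 32.2 and 5.84 CPM, a log2 ratio of -2.46 from 20 and 16 UMIs. Other genes differed between the B-like cells of the libraries. Igkc stood at 5047 and 17375 CPM, Ms4a1 at 1485 and 1127 and Il7r at 0.70 and 17.4. Of the 12 B cell markers 8 were at a higher level in DR and none was at 0, and they summed to 35043 and 53734 CPM. Their part in the Emb and Rnf157 results of B-like cells was not tested.

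T-like cells allowed no comparison, with 3 in control. In the 290 DR T-like cells Emb stood at 276.0 CPM (199% of its NK-like level in that library), Ssbp2 at 73.9 (95.8%) and Sla2 at 41.5 (68.7%). Rnf157 stood at 8.21 CPM in T-like cells, 16.5% of its NK-like level. Khdc1a (2.49%) and Ccdc88a (2.66%) were no higher than the NK genes, so no expression is read from them. The NK genes stood at 2.66% (Klrb1c), 2.84% (Gzma), 3.12% (Ncr1) and 8.58% (Prf1) of their NK-like level. Dhrs3 (4.53%) was below Prf1 but above the other NK genes, so its expression in T-like cells is left undecided. Emb, Ssbp2 and Sla2 were thus shared with T-like cells. Khdc1a, Ccdc88a, Dhrs3 and Rnf157 were highest in NK-like cells among the classes measured in DR. So was Sla2, by a small margin (60.3 CPM against 55.7 in ILC1-like cells).

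Cells with at least 1 UMI of a gene were counted after thinning each cell to 3000 UMIs. At so few UMIs per cell these shares follow the summed levels, so more cells with a transcript and more transcript per cell cannot be told apart. In NK-like cells Sla2 was detected in 7.17% of control and 17.2% of DR cells, against 15.7% and 29.7% without thinning. Dhrs3 was detected in 6.28% and 14.8%, Rnf157 in 6.37% and 12.2%, and Ccdc88a in 5.55% and 10.7% of thinned cells. Ssbp2 was detected in 10.3% and 19.5%, Khdc1a in 14.0% and 24.4%, and Emb in 11.7% and 21.6%. Each gene was found in a larger share of DR cells at equal depth, which restates the choice of the genes. In thinned B-like cells of the DR library Sla2 was found in 0.897% and Khdc1a in 1.12% of 446 cells, which is read as background. Median depths before thinning were 5452 UMIs in NK-like and 6970 in B-like cells of that library.

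If the 7 genes marked one set of cells, they would be found together more often than their single shares predict. For each of the 21 pairs the cells with both genes were set against the product of the single shares, which was held fixed in the intervals. The median over the pairs was 1.14 in control (0.69 to 1.83) and 0.98 in DR (0.77 to 1.25). Over all pairs of the 5837 genes the median was 1.0 in each library, with 5th and 95th percentiles of 0.84 and 1.17 in control and 0.84 and 1.18 in DR. With the product taken within stages, the medians of the 21 pairs were 1.02 and 1.0. Of the pairs taken for comparison on the same cells, Cd3d with Cd3g gave 12.3 and 8.38, Cd27 with Ltb 1.96 and 1.62 and Klrg1 with Cx3cr1 1.6 and 2.61. Klra8 with Klra9, neighbouring Ly49 receptor genes, gave 1.02 and 1.04. Both are found in many cells, and the product alone gives 1823 of 4394 control cells. The ratio of so common a pair has a lower ceiling than those of the 21 pairs. That ceiling was not computed, so the values of Klra8 with Klra9 are given without a reading. Cd27 with Cx3cr1, from opposite ends of maturation, gave 0.47 and 0.24.

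Set against the 5th to 95th percentile range of all gene pairs, 12 of the 21 pairs lay outside it in control (8 above and 4 below) and 3 in DR (2 above and 1 below). The single values are loose in control, where the median pair expected 32.3 cells against 111 in DR, and the intervals of 7 of those 12 held 1. Ccdc88a and Khdc1a were found together in 49 control cells (1.43 times the product, 1.06 to 1.89) and in 138 DR cells (1.25, 1.06 to 1.48). Ssbp2 and Emb were found together in 69 control cells (1.3, 1.01 to 1.64) and 219 DR cells (1.24, 1.08 to 1.40). Khdc1a and Emb were found together less often than the product in both libraries, 0.75 (0.56 to 0.97) in control and 0.84 (0.72 to 0.96) in DR. Dhrs3 and Ccdc88a stood at 1.83 (1.22 to 2.64) in control, from 28 cells, but at 0.77 (0.57 to 1.01) in DR. Dhrs3 and Khdc1a stood at 1.47 (1.12 to 1.90) in control and 1.05 (0.90 to 1.23) in DR. Of 21 intervals per library, 4 lay above 1 and 1 below it in control, and 2 above and 1 below in DR, and the intervals were not adjusted for their number.

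**Figure D3:**
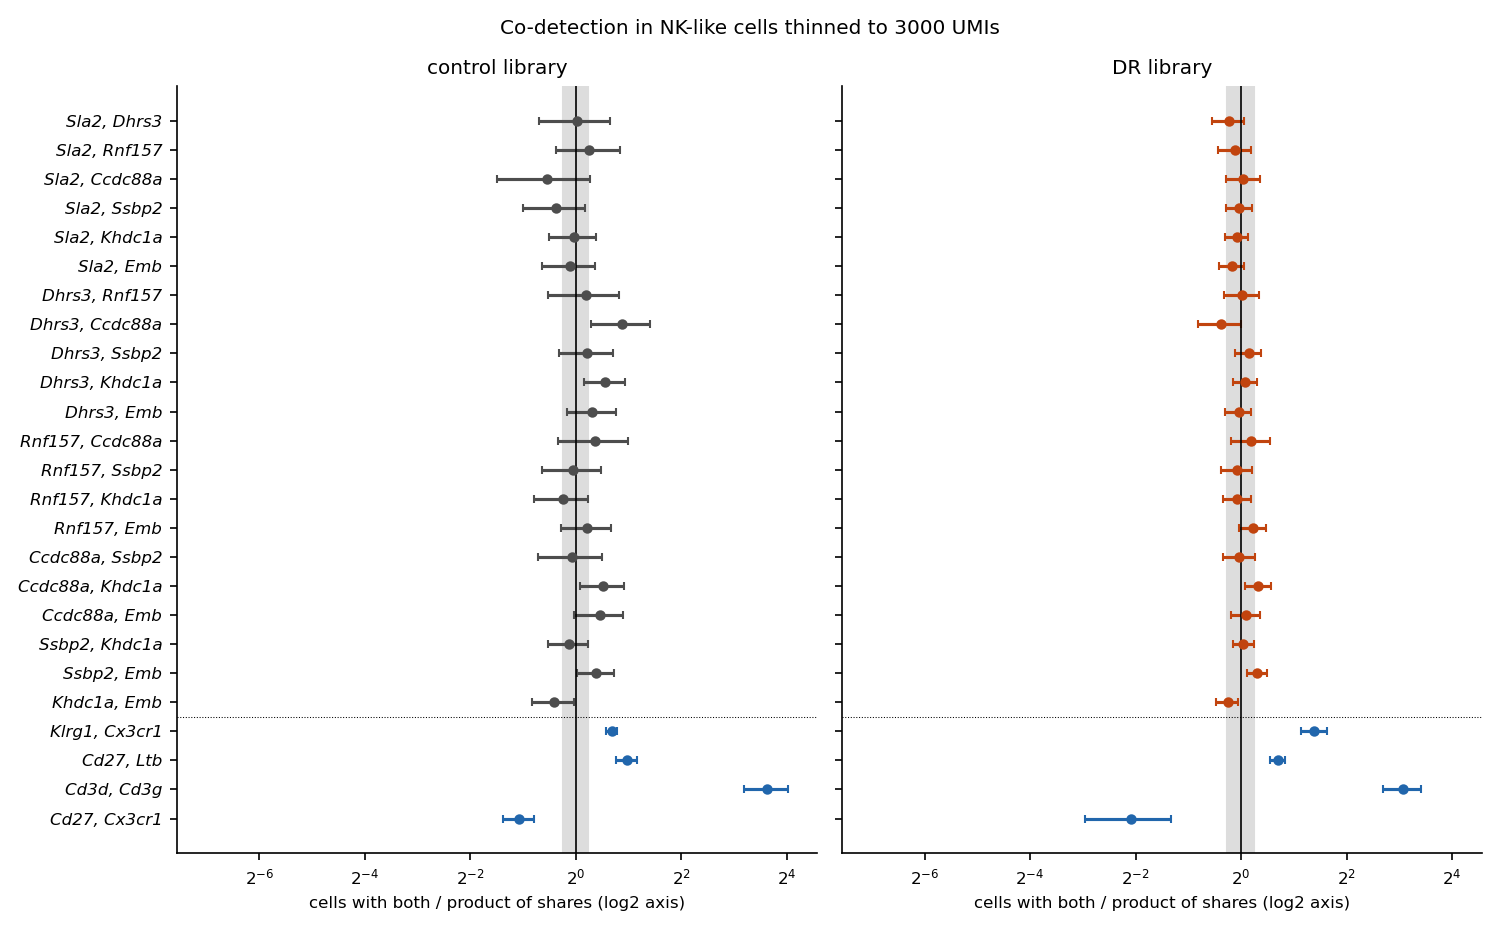
Cells with both genes over the product of the single shares (horizontal log2 axis) for the 21 pairs (vertical axis) in NK-like cells thinned to 3000 UMIs, with 95% intervals as bars, 4 comparison pairs in blue and the 5th to 95th percentiles of all gene pairs in grey. In DR 18 of the 21 pairs lie inside the grey range and in control 9, and Cd3d with Cd3g reaches 12.3 in control and 8.38 in DR.

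The number of the 7 genes found in each cell was set against the same product. At least 1 of them was found in 46.9% of control NK-like cells, where the product of shares gives 47.6%, and in 73.8% of DR cells, where it gives 73.6%. At least 3 were found in 82 of 4394 control cells, 1.87% (exact Clopper-Pearson interval 1.49 to 2.31), where the product gives 1.73%. In DR at least 3 were found in 427 of 4214 cells, 10.1% (9.24 to 11.1), where the product gives 10.2%. Cells with several of the genes were thus more numerous in DR, and as many as the single shares of that library give. At least 4 were found in 0.296% (0.158 to 0.505) of control cells, against 0.151% by the product, and in 2.09% (1.68 to 2.57) of DR cells, against 1.87%. The control share of at least 4 thus exceeded the product beyond its interval, on 13 cells, of which 9 had neither Cd27 nor Itgam (0.511% of those cells, 0.234 to 0.968, against 0.161%). In ILC1-like cells at least 3 were found in 3.74% of control and 8.54% of DR cells, with 2.16% and 7.01% by the product.

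**Figure D4:**
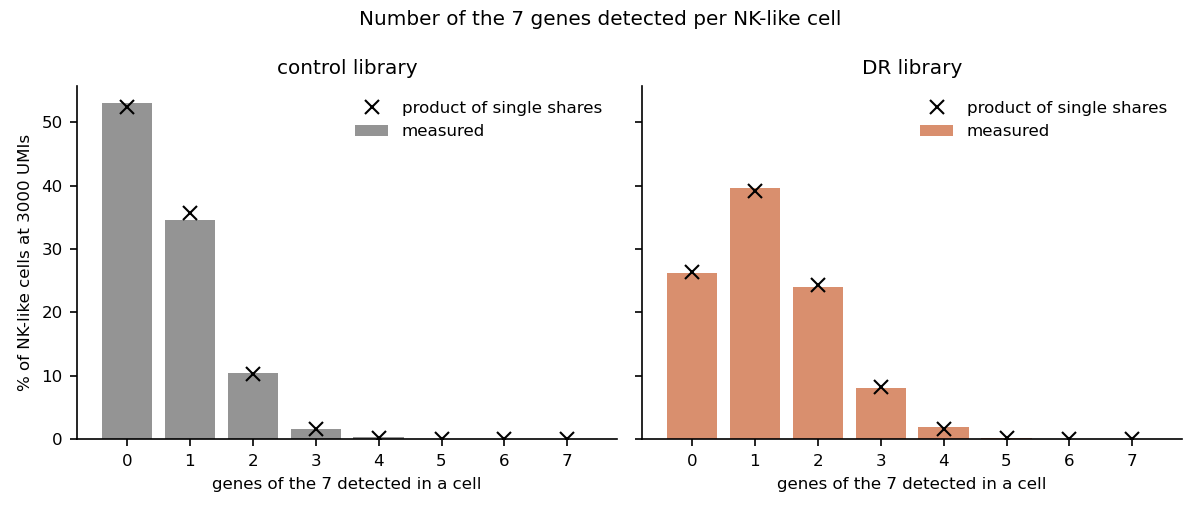
Share of NK-like cells (vertical axis, percent, cells thinned to 3000 UMIs) by how many of the 7 genes were detected in a cell (horizontal axis), as bars for the measured share and crosses for the product of the single shares. Crosses and bars lie close together up to 3 genes; at least 3 genes were found in 1.87% of control and 10.1% of DR cells.

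The cells with at least 3 of the genes were spread over stages and clusters. In DR, 22.5% of them had Cd27 only, 13.6% had both, 21.5% had Itgam only and 42.4% had neither, against 12.2%, 5.34%, 37.3% and 45.1% of the cells with none of the 7 genes. In control 22.0% of them had Cd27 only, against 8.49% of the cells with none. Cx3cr1 stood at 10.1 CPM in the DR cells with at least 3 genes and 37.4 CPM in those with none. Their median depth before thinning was also higher, 6445 against 5214 UMIs. Part of this lean rested on Emb. With Emb left out, at least 3 of the other 6 genes were found in 5.74% of DR cells (5.86% by the product). Of those, 16.5% had Cd27 only and 30.2% had Itgam only, against 16.4% and 32.5% of the cells with none of the 6. Cells with both Cd27 and Itgam remained more frequent among them, 12.4% against 6.24%. The stage genes went both ways in these cells. Cd27 (125.3 against 96.9 CPM) and Ctla2a (746.6 against 652.3) were higher. Cx3cr1 (17.9 against 29.8) and Klrg1 (110.2 against 124.3) were lower. However, Ltb (89.5 against 152.8), Il7r (4.13 against 46.1) and Kit (9.64 against 23.9) were also lower. Itgam was higher (213.5 against 184.3), and Zeb2 differed little (530.3 against 521.1). In control, 40 cells held at least 3 of the 6, and Cx3cr1 stood at 25 CPM in them, against 163.2 in those with none. Levels in so few thinned cells rest on very few UMIs. Tcf7 was higher in these 40 cells (83.3 against 45.6 CPM), but Cd27 was not (66.7 against 75.8) and Kit was lower (16.7 against 37.2). Of them 7.5% had Cd27 only, against 11.4% of those with none. By cluster, at least 3 of the 7 were found in 16.2% of DR cells of the immature-like cluster led by Thy1 and Emb. The share was 12.4% in the cluster led by Batf3, 12.3% in that led by Cmah, 5.98% in the mature-like cluster led by Ly6c2 and 5.76% in that led by Cx3cr1. Emb itself is counted here, and was found in 42.6% of the Thy1 cluster against 3.86% of the Ly6c2 cluster. Between the same clusters Sla2 (16.4% and 17.8%) and Dhrs3 (15.5% and 15.8%) were alike, whereas Ccdc88a differed (14.5% and 8.91%). No share without Emb is given by cluster.

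Emb was tied most closely to stage genes in single cells. Emb was found with Ltb 3.84 times (control) and 2.44 times (DR) as often as the product, and with Il7r 3.55 and 2.87 times. Emb with Cd27 gave 2.07 and 1.71, whereas with Cx3cr1 it gave 0.12 and 0.06 and with Klrg1 0.21 and 0.33. Sla2 gave 0.80 to 1.13 in control and 0.88 to 1.16 in DR over the 12 stage genes, near 1 at both ends. The remaining genes showed partial leanings. Ccdc88a with Cx3cr1 gave 0.59 and 0.54, although Ccdc88a with Klrg1 gave 0.86 and 0.87. Rnf157 (0.68 and 0.94), Khdc1a (0.72 and 0.87) and Ssbp2 (0.80 and 0.55) were also found with Cx3cr1 less often than the product. Their control intervals lay below 1, but among them only Ssbp2 had such an interval in DR. Dhrs3 with Cx3cr1 gave 1.16 and 1.05. Ssbp2 with Tcf7 gave 1.48 and 1.17, with a DR interval that held 1. Khdc1a with Il7r gave 0.56 and 0.42, and Dhrs3 with Ltb gave 0.50 and 0.79. Rnf157 with Ltb gave 1.55 and 1.22. With the T-box genes Eomes and Tbx21 the 7 genes gave 0.80 to 1.12 in control and 0.85 to 1.09 in DR.

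**Figure D5:**
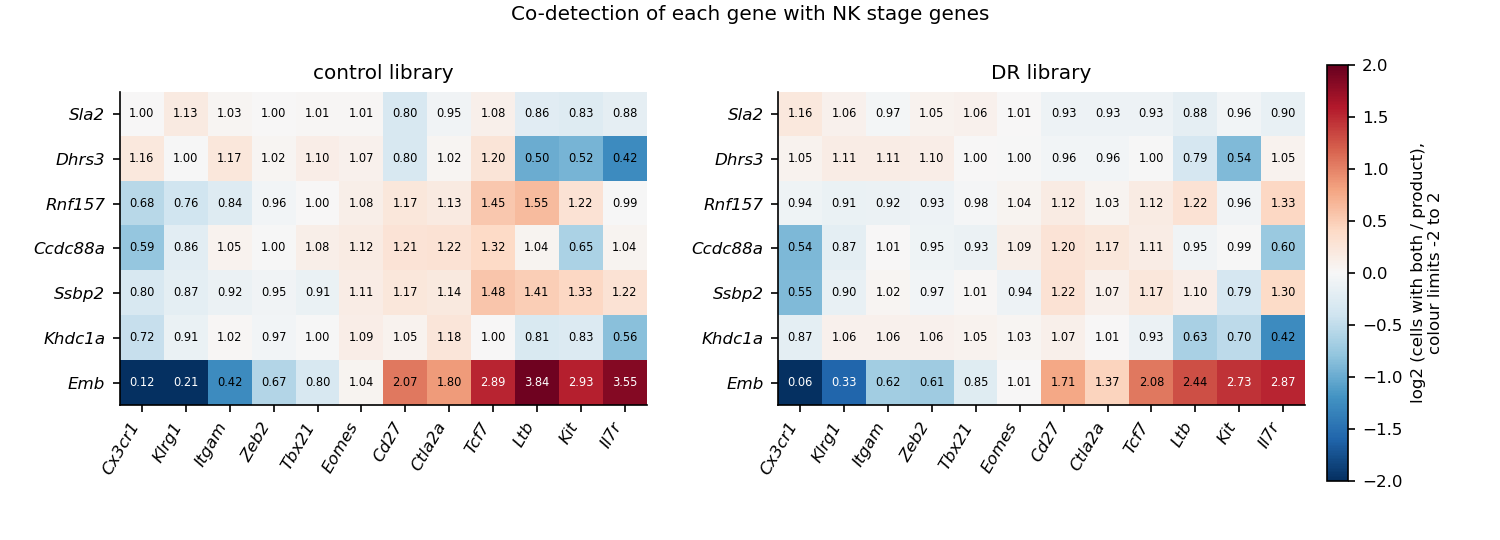
Cells with both genes over the product of the single shares, for each of the 7 genes (rows) with 12 NK stage genes (columns, late to early), printed in each square and coloured on a log2 scale limited at -2 and 2. The Emb row runs from 0.12 (Cx3cr1) to 3.84 (Ltb) in control, while the Sla2 row stays between 0.80 and 1.13.

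Across classes the 7 genes fell into unlike patterns. Likeness was measured as Pearson's r of log2(CPM + 5) over 13 profiles, the 4 NK stages, ILC1-like and B-like cells of each library and the DR T-like cells. The profiles share libraries, and every choice by DR ratio raises r, so the values only describe. Sla2 and Ssbp2 were most alike among the 7 (r = 0.95), followed by Ccdc88a and Khdc1a (0.93), while Khdc1a and Emb gave -0.06. Among all genes of at least 20 CPM, Sla2 was closest to Ssbp2, AI467606 (0.94) and Nt5dc1 (0.93). Dhrs3 was closest to Akr1b10 (0.98), Tex261 (0.97) and Tulp4 (0.96). Rnf157 was closest to Yif1b (0.92), D430042O09Rik (0.87) and Snrpd2 (0.87). Ccdc88a was closest to Khdc1a, Ggct (0.92) and Il10rb (0.92). Ssbp2 was closest to Crtc3 (0.96), Sla2 and Hdac4 (0.94). Khdc1a was closest to the notch-responsive gene Nrarp (0.99), Wdr95 (0.98) and the Ly49 receptor gene Klra4 (0.97). Emb was closest to Socs1, a brake on cytokine signalling (0.92), Sidt1 (0.91) and Shisa5 (0.91).

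Relatives, partners and genes of like function mostly did not follow the 7 genes in NK-like cells. Of all 8960 genes of at least 5 CPM, 5.67% were called higher and 8.45% lower, with a median log2 ratio of -0.04. Of 17 other adaptors and dampeners of antigen receptor signalling, 2 were higher, none was lower and 15 lay between, with a median of -0.04. The closest paralog of Sla2, Sla, which encodes SLAP, was one of them, at 86.9 CPM in control and 125.8 in DR (log2 ratio 0.53), and the adaptor gene Pag1 the other (0.40). Cblb and Zap70, a ubiquitin ligase and a kinase of the same pathway, stood at -0.01 each. Of 7 genes of retinoid metabolism and signalling beside Dhrs3, 0 were called in either direction, by the same size rule, and Rdh14 (0.01) and Rara (0.05) stood near no change. Of 11 other ubiquitin ligase genes listed beside Rnf157, most not close relatives of it, 2 were higher (Peli1, 0.35, and Rnf19b, 0.38). Nedd4 was lower (-0.32) and 8 lay between. Mgrn1, the closest relative of Rnf157, was among those between, at -0.14.

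Of 10 GIV relatives and G protein genes beside Ccdc88a, none was higher and Akt2 was lower (log2 ratio -0.33). The girdin paralogs Ccdc88b (-0.21) and Ccdc88c (-0.15) were not called. Of 6 SSBP and LIM-complex genes, Ssbp4 was higher (0.39) and Ssbp3 lower (-0.43), so the paralogs of Ssbp2 went opposite ways, and Ldb1 stood at -0.09. Of 3 embigin relatives and transporters, 0 were called in either direction, and the Emb paralogs Bsg and Nptn stood at -0.19 and -0.12. The exception was the KH family of Khdc1a. Khdc1b stood at 8.41 and 12.9 CPM (0.62) and Khdc1c at 6.93 and 15.2 CPM (1.14), and both were higher. These are close copies of Khdc1a, so reads may have been split or shared between them and the values are uncertain. For the maturation markers, 6 of 11 genes of the immature list were higher and Kit was lower (-0.80), and 8 of 11 of the mature list were lower. The lists were drawn up with earlier results of these data known.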

How the data were processed

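Droplet-based 3' single-cell libraries of flow-sorted splenic NK cells, 1 control and 1 DR, were used, grouped by the labels. The deposited values were raw UMI counts per gene and barcode, not normalized. The matrix headers name Cell Ranger 5.0.1, whereas the submitters' processing notes name 2.1.1 and build mm10, and the conflict was not settled; other steps are not given in the sources used here. Filters on genes (500 or more) and mitochondrial UMIs (10% or less) took out 215 control and 167 DR barcodes. Automatic doublet calling (Scrublet) marked 0 and 0 cells, so it was set aside as failed. The top scores at 0.8% per 1000 cells were therefore removed with ties, 243 and 364 cells; this rule was chosen with the data in view.

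Cells of both libraries were clustered together (scanpy 1.11.5, 2000 variable genes without the 7 genes, 30 components, 15 neighbours, Leiden resolution 0.6) and named where at least 3 markers and 50% of a marker list were present. No batch integration was used. Clusters that passed for more than 1 lineage (2) stayed unnamed and entered no comparison. One of them (85 control and 50 DR cells) was led by Hist1h1b, with Mki67 and Top2a, and passed both the NK and the plasma cell list. These dividing cells are therefore not counted among the NK-like cells. UMIs were summed per class and library and scaled to CPM. Intervals were exact at 95% (Poisson for levels, conditional binomial for ratios, Clopper-Pearson for shares). Thinning used 3000 UMIs per cell. The pseudocount of 5 CPM served the likeness measure only. Genes named were the 7, 12 stage genes, those called and up to 2 others of each list, and the 3 genes most like each of the 7. The members, lists and rules were chosen with earlier results of these data known. Scripts were tested on simulated data (Python 3.11.15, numpy 2.4.6, scipy 1.17.1, pandas 2.3.3). Alternatives changed scaling, doublets, clustering genes, cell choice, carried RNA, shared barcodes, stage depth, weights and thinning. No barcode held under 501 UMIs, so empty droplets were not used to estimate free RNA.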

Additional observations from a re-analysis of the deposited data

Results flagged for a closer look

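Emb moved in opposite directions in 2 cell classes. Its log2 ratio of DR over control was -1.51 in B-like cells and 0.91 in NK-like cells, and the difference between the classes was not tested, since each class has 1 sample per group. The level of Emb in B-like cells was 37.8 CPM (control) against 13.3 CPM (DR).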

How the results depend on the processing

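Under 9 other settings all 7 genes stayed called higher in NK-like cells. These were median-of-ratios scaling, a total without ribosomal and mitochondrial genes, doublets kept in, the 7 genes allowed in clustering, NK cells picked by UMIs, cells with UMIs of other lineages left out, shared barcodes left out, and, added after seeing the data, the cluster led by Batf3 or that led by Igkc left out. The log2 ratio of Emb ranged from 0.85 to 1.06 over them and that of Sla2 from 1.31 to 1.41. Of the values recomputed over all results, 112 stayed within the margins set for them, 1 count rose, 1 fell and 4 moved. With called doublets kept in, 2 of the 7 genes were higher in B-like cells. Without ILC1-like cells holding UMIs of any of 7 T cell genes, which left 33 and 39 cells, 0 of the 7 genes were called higher in the rest. Few UMIs remained there, such as 6 and 9 of Sla2. The share of cells with at least 3 genes depends on depth by construction. At 2000 UMIs it was 0.823% in control (0.676% by the product) and 4.35% in DR (4.35%), and at 4000 UMIs 3.72% (3.26%) and 17.2% (17.2%). The median pair value was 1.02 to 1.18 in control and 0.99 to 1.02 in DR over 5 settings. No paired analysis was possible because each group has 1 library and the labels carry no replicate numbers. No replicate could be left out. Genes of few UMIs, such as those in B-like cells, are limited by depth.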

Other observations

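In the cluster led by Cxcl10 and Nr4a1 (128 control and 87 DR cells), with interferon and immediate early genes among its leading genes, the levels of Sla2 were 22.6 and 29.0 CPM, with an interval of the log2 ratio from -0.59 to 1.28. Dhrs3 stood at 22.6 and 46.8 CPM there (0.23 to 1.87), and Rnf157 at 40.9 and 85.5 CPM (0.47 to 1.66). Emb stood at 101.8 and 108.0 CPM (-0.37 to 0.53). Whether these ratios differ from those of other NK-like cells was not tested.

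In a small low-depth cluster (40 control and 29 DR cells), counted among all NK-like cells but left out of the comparison over clusters, Emb stood at 482.5 CPM in control from 35 UMIs and 232.2 CPM in DR from 10 UMIs.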
